A study of Homo sapiens with 4 samples.

Results

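NF-κB is a family of transcription factors that pair as dimers on DNA, and the data described here are the RNA levels of 10 genes of this system in mammospheres grown from the established basal-like triple-negative breast cancer (TNBC) line MDA-MB-468. The 10 genes were taken by symbol: the 5 subunits NFKB1, NFKB2, REL, RELA and RELB, the inhibitors NFKBIA and NFKBIE, and the target genes TNFAIP3, BIRC3 and ICAM1. They are 10 of 26475 gene symbols counted, and all 10 had enough reads to enter the comparisons. Mammospheres, the floating spheres that cells able to grow without attachment form, were harvested after a week of culture, and several plates were pooled into each library. All cells carried Cas9 with an mCherry reporter and a guide RNA vector with a GFP reporter whose guide is switched on by doxycycline, and were sorted for both colours, so each arm is a pool of cells and not a clone. CTL is the control guide arm, labelled wild type, without doxycycline, and CTL+dox is the same arm, also labelled wild type, with it. gRNA2 is the arm with the inducible guide against TCOF1, a nucleolar factor of ribosomal RNA synthesis, and is labelled wild type as long as no doxycycline was given. gRNA2+dox is that arm with doxycycline, labelled as the TCOF1 knockout. Each of the 4 conditions had 1 library, so spread between cultures was not measured, no test across replicates could be made and no p-value is given.

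In resting cells NF-κB dimers are held in the cytoplasm by inhibitor proteins such as IκBα, the product of NFKBIA. Signals from TNF, interleukin-1 or Toll-like receptors activate the IκB kinase complex, the inhibitors are degraded, and RELA with the p50 product of NFKB1 enters the nucleus (the canonical arm). A slower, non-canonical arm processes the NFKB2 precursor to p52, which pairs with RELB. Many NF-κB targets are brakes on the pathway itself, among them NFKBIA, NFKBIE and TNFAIP3, so their RNA is often read as a sign of activity. In basal-like breast cancer, NF-κB signalling is known for inflammatory cytokine expression and for its links with stem-like cells.

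Stretches before the start sites of 5 members are shown because they hold matches to the DNA motif of the factor that these genes encode or answer to. They come from RefSeq promoter windows of GRCh38.p14, 250 bases before to 50 after a start, read 5′ to 3′ on the strand of the gene, and lie at chr4:102501290-102501339 on the forward strand for NFKB1, chr2:60881507-60881557 forward for REL, chr14:35404801-35404850 reverse for NFKBIA, chr11:102317265-102317378 forward for BIRC3 and chr19:10270914-10270962 forward for ICAM1. Capitals mark the match.
NFKB1: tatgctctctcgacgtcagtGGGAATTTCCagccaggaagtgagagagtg
REL: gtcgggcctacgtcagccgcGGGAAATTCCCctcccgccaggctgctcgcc
NFKBIA: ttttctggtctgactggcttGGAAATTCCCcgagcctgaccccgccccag
BIRC3: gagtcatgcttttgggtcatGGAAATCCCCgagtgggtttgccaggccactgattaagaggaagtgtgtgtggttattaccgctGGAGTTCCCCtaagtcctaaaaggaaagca
ICAM1: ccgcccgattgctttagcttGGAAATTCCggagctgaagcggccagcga

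On either strand, the κB consensus was found in the windows of 6 of the 8 members that have one, NFKB1, NFKB2, REL, NFKBIA, TNFAIP3 and BIRC3, beside 13.3% of 27305 genes. A variant, GGAAATTCC, was found in 4 of the 8, NFKB1, REL, NFKBIA and ICAM1, beside 0.560% of genes. In NFKB1, REL and NFKBIA the variant overlaps the consensus match. The windows of RELA held neither. RELB and NFKBIE have no window and were not searched. The matches began between positions -81 and -47 in NFKB1, REL and NFKBIA, whereas those of BIRC3 began at positions -199 and -135 and that of ICAM1 at -186, counted from the start. TNFAIP3 held matches at -67 and -55, and NFKB2 at -107 and -78 from its start 2 and at -176 and -21 from its start 3. A match is a description of the letters and no measurement of binding. The motif was searched because of the pathway, so its share among members is no independent result.

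**Figure D1:**
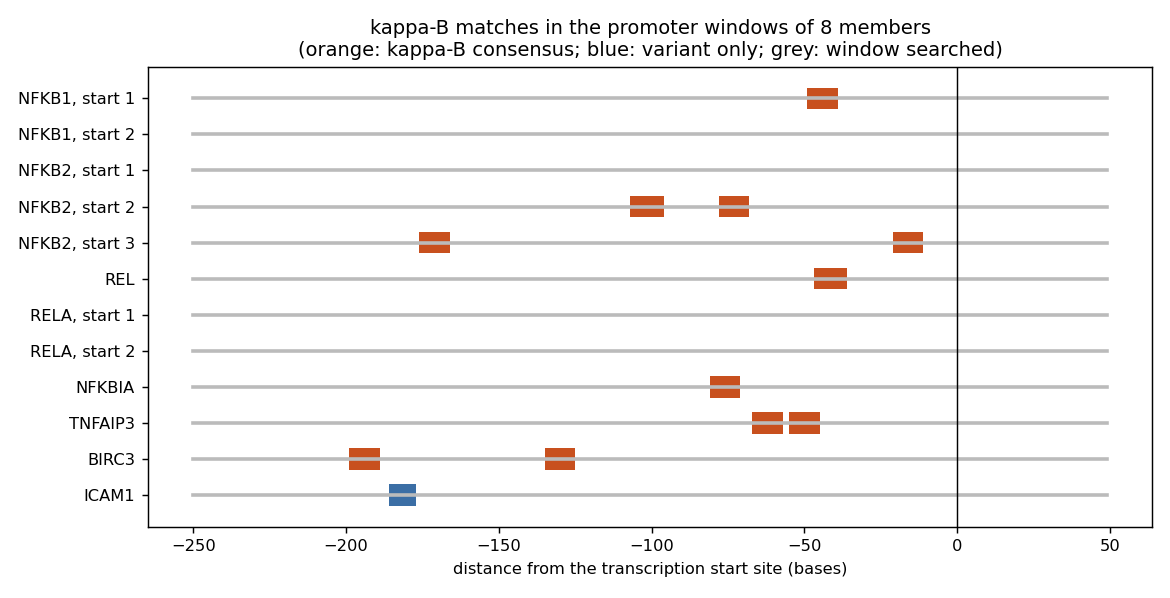
Positions of κB consensus matches (orange) and of a variant match outside the consensus (blue) in the promoter windows (grey) of the members, in bases from the start site (horizontal axis, 0 is the start). Of the 8 members with a window, 6 hold the consensus, ICAM1 holds the variant alone, and RELA holds neither.

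Counts on genes summed to between 19960644 and 26322847 per library, 79.7% to 81.0% of the reads. For TCOF1, the target of the guide, 1019, 754, 1318 and 437 reads were counted in CTL, CTL+dox, gRNA2 and gRNA2+dox, the order used wherever 4 reads or CPM values of a gene follow each other. Its log2 fold change was -1.34 between gRNA2+dox and gRNA2, and -0.58 (95% counting interval -0.71 to -0.44) between CTL+dox and CTL. Between gRNA2+dox and CTL+dox it was -0.74 (-0.92 to -0.57). All 9 markers of basal-like breast epithelium were detected, with summed levels of 18184 to 19944 CPM (counts scaled to normalized library sizes). Of 16 white blood cell markers 13 were under the count filter, CD3D, NKG7 and TYROBP had 0 reads in every library, and the summed level ran from 63.5 CPM in CTL to 69.8 in gRNA2+dox. In bulk RNA, fewer cells of a type and less RNA per cell cannot be told apart.

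Per kilobase of the canonical transcript, the scale on which genes can be compared, ICAM1, an adhesion molecule that binds leukocyte integrins, had the highest mean level of the members at 277 CPM per kb (range 232 to 340 over the 4 libraries). It ranked 208 among the 13810 genes with a length. Among the subunits RELA came first at 103 CPM per kb (90.4 to 114), ahead of NFKB2 at 29.3 (26.4 to 31.3), RELB at 26.9 (23.8 to 31.1), NFKB1 at 7.65 (7.06 to 8.21) and REL at 3.24 (2.73 to 3.84). NFKB2 lay above RELB in 3 of the 4 libraries, all but gRNA2+dox. NFKBIA had 50.3 CPM per kb (46.6 to 54.5), TNFAIP3 31.5 (29.0 to 34.9), NFKBIE 13.3 (12.1 to 13.9) and BIRC3 8.11 (7.48 to 9.01). Within the libraries, TNFAIP3 lay above NFKB2 and above RELB in 4 of 4, and BIRC3 above NFKB1 in 2 of 4. The canonical REL transcript is 11108 bases long, and a shorter form in these cells would give it a higher level per kb.

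RELA encodes p65, the activating subunit of the canonical arm, and lies at chr11:65653601-65663857 of GRCh38. Its reads numbered 4998, 5125, 7500 and 6054, or 245, 228, 288 and 277 CPM. Both gRNA2 libraries were above both CTL libraries, and all neighbours in order of level were apart, which here means that the 95% counting interval of their ratio excludes equal levels. NFKB1, at chr4:102501359-102617302, encodes the p105 precursor of p50. Its levels were 32.4, 28.6, 33.3 and 29.8 CPM, from 645 to 867 reads. Its neighbours in order overlapped at each step.

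REL, at chr2:60881574-60931612, encodes c-Rel, a subunit best known from lymphocytes. It had 690, 684, 1112 and 813 reads, or 33.8, 30.4, 42.7 and 37.2 CPM. Its level was highest in gRNA2, and only that library stood apart from its neighbour. Of the annotated exon bases of REL, 33.3% overlap a gene without a symbol on the same strand, so its reads are uncertain. NFKB2, at chr10:102394110-102402529, encodes the p100 precursor of p52 and had levels of 88.2, 79.6, 94.3 and 91.8 CPM, from 1792 to 2456 reads. CTL+dox was the only library apart from its neighbour.

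RELB, the partner of p52 at chr19:45001464-45038192, had an order of its own. Its reads were 1263, 1213, 1489 and 1532, and its levels 61.8, 53.8, 57.2 and 70.1 CPM. gRNA2+dox was highest and apart from CTL, CTL was apart from gRNA2, and gRNA2 and CTL+dox overlapped. RELB was the only subunit with its highest level in gRNA2+dox.

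NFKBIA, at chr14:35401513-35404749, had 1515, 1637, 2136 and 1855 reads, or 74.2, 72.7, 82.0 and 84.9 CPM. The gRNA2 libraries overlapped each other and were apart from the CTL libraries, which also overlapped. NFKBIE encodes IκBε, another inhibitor of the dimers, at chr6:44258166-44265551, and showed 32.6, 28.4, 32.7 and 31.1 CPM in the same order from 639 to 851 reads. All its neighbours overlapped, and its highest and lowest levels differed 1.15-fold, the smallest ratio among the members. TNFAIP3, at chr6:137866349-137883312, encodes A20, an enzyme that edits ubiquitin chains and stops the signal to the kinase. It had 2930, 3043, 4244 and 3202 reads, or 143, 135, 163 and 147 CPM, and gRNA2 was highest and apart from gRNA2+dox, while CTL+dox was lowest and apart from CTL.

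BIRC3 encodes cIAP2, a ubiquitin ligase at TNF receptors, and lies at chr11:102317484-102339403. Over the 4 libraries 1051, 1202, 1465 and 1353 reads fell on it, or 51.5, 53.4, 56.2 and 61.9 CPM. gRNA2+dox was highest and apart from gRNA2, and BIRC3 was the only member whose lowest library was CTL. ICAM1, at chr19:10271120-10286615, had the most reads, 14601, 15497, 22777 and 22028. Its levels were 715, 688, 874 and 1009 CPM, with every neighbour apart, and its highest and lowest levels differed 1.47-fold, the largest ratio among the members. The libraries are not stranded, and 23.6% of the exon bases of ICAM1 lie opposite the antisense gene ICAM4-AS1. Reads there are set aside where the annotation used for counting holds that gene and otherwise enter the count of ICAM1, and which applies was not tested. For RELA, TNFAIP3 and BIRC3 such antisense overlap took 1.89%, 1.47% and 1.68% of exon bases.

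Of the 10 members, 6 were highest in gRNA2, 4 in gRNA2+dox and 0 in a CTL library, and 9 were lowest in CTL+dox. NFKBIE was instead highest in CTL with DESeq2 size factors, total counts or thinned libraries, and NFKB1 with total counts. For NFKB1, NFKB2, NFKBIA and NFKBIE the highest library overlapped the next. As the lowest library, CTL+dox was apart from the next only for NFKB2, RELA, TNFAIP3 and ICAM1. Over all 15204 genes with at least 10 reads in at least 1 library, 28.2% were highest in gRNA2 and 23.8% in gRNA2+dox. A further 18.5% were highest in CTL and 29.5% in CTL+dox, and 29.3% were lowest in CTL+dox. The members share the same 4 libraries, so a property of 1 library enters all of them, and they are not replicates. As no member differed by more than 1.5-fold over the libraries, no genes most like any of them are named.

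**Figure D2:**
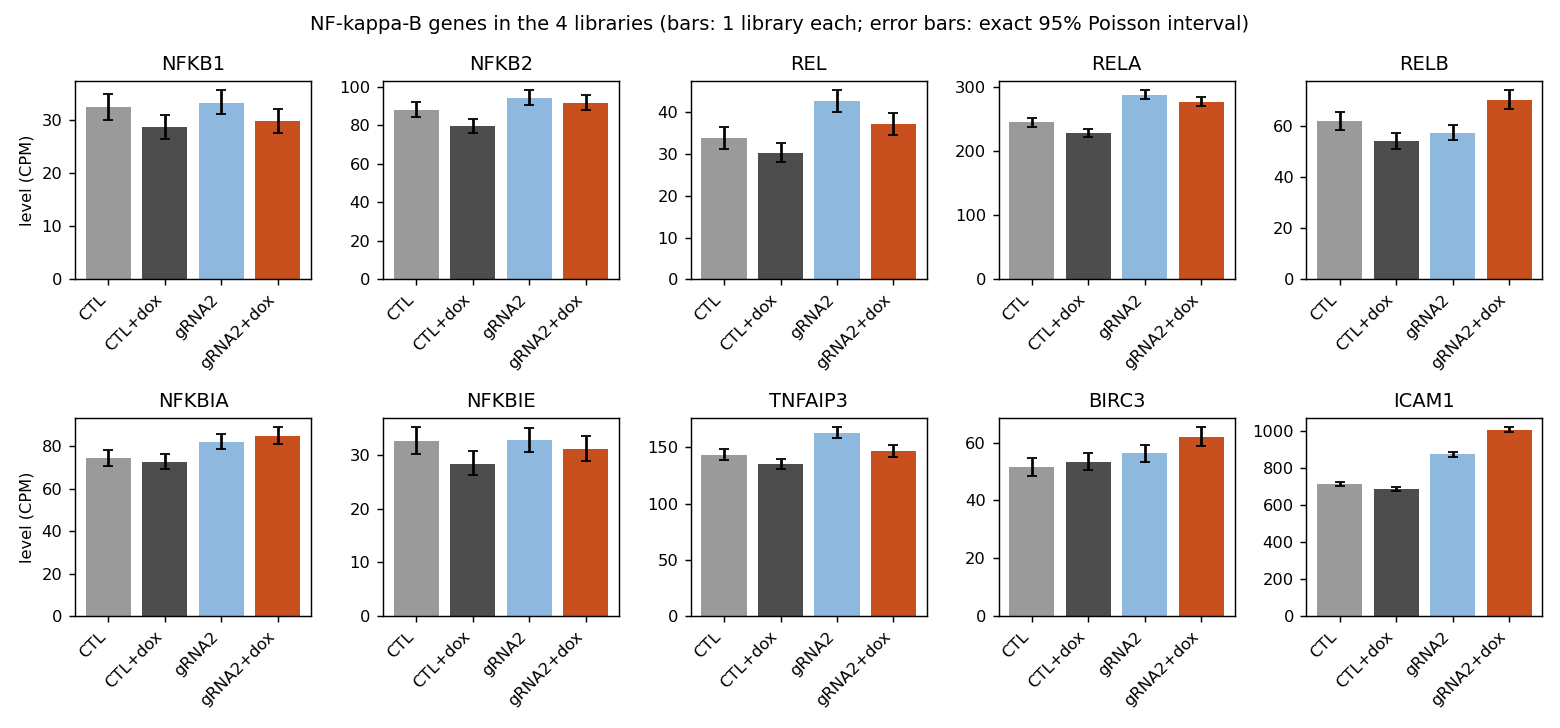
Level of each member in the 4 libraries, in CPM on normalized library sizes (vertical axis, bars from 0, a panel for each gene), with exact 95% Poisson intervals that cover counting error only. RELB is highest in gRNA2+dox at 70.1 CPM, and ICAM1 runs from 688 CPM in CTL+dox to 1009 in gRNA2+dox.

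Within the gRNA2 cells, the question is how the members differ once the TCOF1 guide is switched on, and the differences were small and pointed both ways. RELB was higher in gRNA2+dox than in gRNA2, with a log2 fold change of 0.30 (95% interval 0.19 to 0.40), as were ICAM1 with 0.21 (0.18 to 0.23) and BIRC3 with 0.14 (0.03 to 0.25). REL was lower with -0.20 (-0.33 to -0.07), and so were NFKB1 with -0.16 (-0.31 to -0.01), TNFAIP3 with -0.15 (-0.22 to -0.09) and RELA with -0.05 (-0.10 to -0.01). The intervals of NFKB2 at -0.04, NFKBIA at 0.05 and NFKBIE at -0.07 covered 0. The intervals are Clopper-Pearson ones, exact for the reads that 2 libraries split between them. They hold only the error of counting, reads are not independent molecules, and libraries rather than conditions are compared. The median over members was -0.05, beside -0.02 over all genes.

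By the rule for a moderate difference, a log2 fold change past that of 1.5-fold with its interval on the same side of 0, 0 of 10 members were higher and 0 lower in gRNA2+dox than in gRNA2, beside 1.7% of all genes higher and 2.39% lower. The cutoffs of the study, a log2 fold change past 1 with a bound under counting error past 0.5, were passed by 0 of 10 members and by 0.599% of genes. The paper gives them for downregulated genes, and here they were applied in both directions. By the interval alone 3 of 10 were higher and 4 lower, beside 13.6% and 17.3% of genes. Genes with many reads have narrow intervals, and among the 7055 genes with a mean of at least 500 reads, as all members have, these shares were 20.8% and 24.7%. Past 1.5-fold were 0.255% of these well counted genes higher and 0.113% lower, so the count of 0 of 10 lies near the background.

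In the CTL cells, where doxycycline switches on the control guide, 9 of 10 members had a lower level in CTL+dox than in CTL, beside 47.7% of all genes. The exception was BIRC3, with a log2 fold change of 0.05 (-0.07 to 0.17). RELB had -0.20 (-0.31 to -0.08), NFKBIE -0.20 (-0.36 to -0.04), NFKB1 -0.18 (-0.34 to -0.02) and NFKB2 -0.15 (-0.24 to -0.05). RELA, TNFAIP3 and ICAM1 differed less, with -0.11, -0.09 and -0.06, and their intervals also lay below 0. For REL at -0.15 and NFKBIA at -0.03 the interval covered 0. By the interval alone 0 members were thus higher and 7 lower, beside 16.6% and 14.3% of all genes and 27% and 22.2% of the well counted ones. Past 1.5-fold there were 0 members higher and 0 lower, beside 1.45% and 1.68% of genes (0.0283% and 0.0992% of the well counted ones), and past the cutoffs 0, beside 0.257%. The median over members was -0.13, and 0.01 over all genes.

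With doxycycline in both arms, all 10 members had a higher level in gRNA2+dox than in CTL+dox, where 50.2% of all genes and 55.2% of the well counted ones did. ICAM1 differed most, 1.47-fold, with a log2 fold change of 0.55 (0.52 to 0.58). It was followed by RELB with 0.38 (0.27 to 0.49), REL with 0.29 (0.15 to 0.44) and RELA with 0.28 (0.23 to 0.34). NFKBIA, BIRC3 and NFKB2 lay at 0.22, 0.22 and 0.21, and TNFAIP3 at 0.12, all with intervals above 0. NFKBIE at 0.13 (-0.03 to 0.29) and NFKB1 at 0.06 (-0.10 to 0.22) covered 0. By the interval alone 8 members were higher and 0 lower, beside 20.8% and 19.4% of all genes and 33.4% and 24.6% of the well counted ones. Past 1.5-fold were 0 members either way, beside 2.59% of genes higher and 4.18% lower (0.723% and 0.567% of the well counted ones), and past the cutoffs 0, beside 1.51%. The median was 0.22, and 0.00 over all genes.

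A difference between the arms was also present without doxycycline. In gRNA2 against CTL, REL had a log2 fold change of 0.34 (0.20 to 0.48), ICAM1 0.29 (0.26 to 0.32), RELA 0.23 (0.18 to 0.29) and TNFAIP3 0.18 (0.12 to 0.25). NFKBIA had 0.14, BIRC3 0.13 and NFKB2 0.10, again above 0 by the interval. RELB was the only lower member, at -0.11 (-0.22 to -0.004), while NFKB1 at 0.04 and NFKBIE at 0.00 covered 0. By the interval alone 7 members were higher and 1 lower, beside 19.7% and 11.8% of all genes and 33.1% and 14.4% of the well counted ones. Past 1.5-fold were 0 members either way, beside 1.55% and 2.52% of genes (0.0283% and 0.283% of the well counted ones), and past the cutoffs 0, beside 0.566%. The median was 0.14 over members and 0.03 over all genes. With normalized sizes 9 of 10 lay above 0, beside 55.5% of all genes and 62.4% of the well counted ones, but with total counts only 7 did, since NFKB1 and NFKBIE turned to just under 0, and with DESeq2 size factors or thinned libraries 8 did, since NFKBIE turned. The comparisons share libraries, so these values are set side by side and are not independent of one another.

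**Figure D3:**
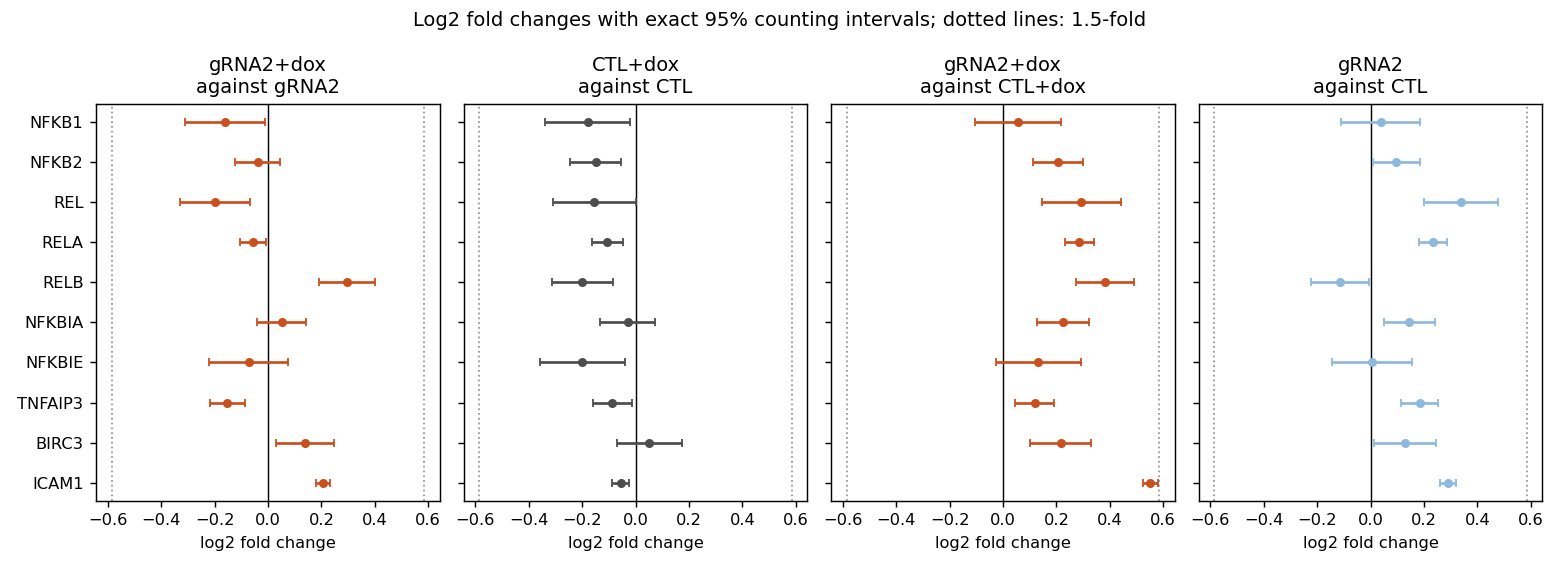
Log2 fold change of each member in the 4 comparisons (horizontal axis) with exact 95% counting intervals, and lines at 0 and at 1.5-fold. All points lie inside 1.5-fold, and ICAM1 in gRNA2+dox against CTL+dox comes nearest, at 0.55.

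The log2 ratio with doxycycline in the gRNA2 cells and that in the CTL cells share no library, and their difference sets the gRNA2 arm against what was seen with doxycycline in the CTL arm. For RELB the ratios were 0.30 and -0.20, a difference of 0.49 (SE 0.0782, 95% interval 0.34 to 0.65, counting error only). For ICAM1 they were 0.21 and -0.06, a difference of 0.26 (SE 0.0215, interval 0.22 to 0.30). The intervals of the other 8 members covered 0, with differences from -0.07 for TNFAIP3 to 0.13 for NFKBIE. Members with the interval above 0 were therefore 2 of 10 and below it 0 of 10, beside 11.5% and 15.1% of all genes and 17% and 22% of the well counted ones. The count of 2 lies near those shares. A difference as large as that of RELB or larger was seen in 36 of the well counted genes, 0.51%. RELB had the largest difference of the 10 members, and the share counts genes in that direction only. That share therefore does not measure how unusual RELB is. The median difference was 0.08 over members and -0.02 over all genes. If cultures of 1 condition varied by a coefficient of variation of 0.1, a value assumed and not measured, the interval would run from -0.09 to 1.08 for RELB and from -0.31 to 0.83 for ICAM1.

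**Figure D4:**
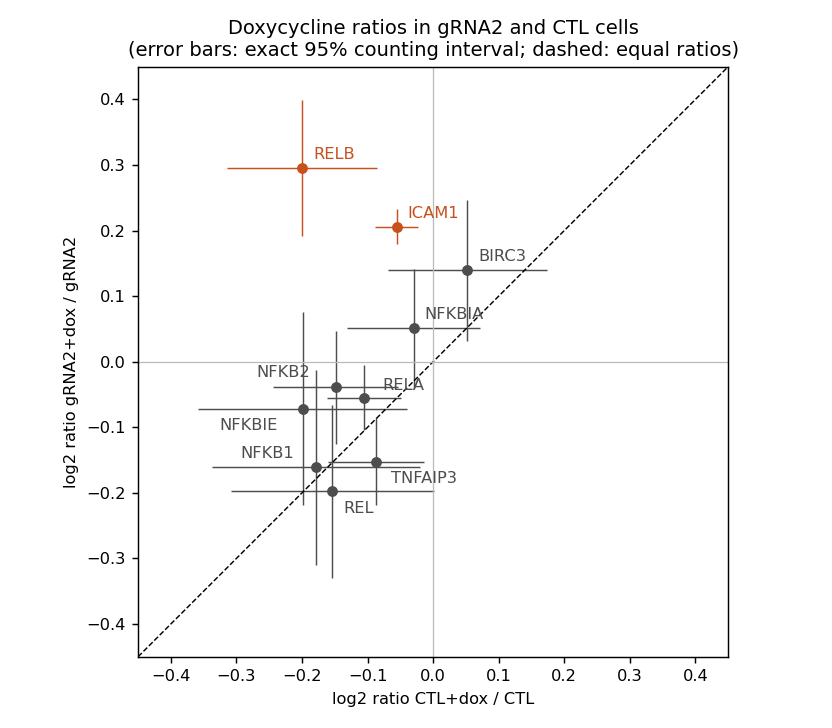
Log2 ratio with doxycycline in the gRNA2 cells (vertical axis) against that in the CTL cells (horizontal axis) for the 10 members, with 95% counting intervals and a dashed line where both are equal. RELB (0.30 against -0.20) and ICAM1 (0.21 against -0.06) lie above the line by more than counting error.

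Ratios of reads within a library do not depend on the scaling between libraries. RELB reads per RELA read were 0.253 (95% interval 0.237 to 0.269) for CTL, 0.237 (0.222 to 0.252) for CTL+dox, 0.199 (0.188 to 0.210) for gRNA2 and 0.253 (0.239 to 0.268) for gRNA2+dox. The ratio of the non-canonical to the canonical activator was thus lowest in gRNA2, while gRNA2+dox and CTL had the same value. ICAM1 reads per RELA read were 2.92, 3.02, 3.04 and 3.64 in the same order, with gRNA2+dox (3.54 to 3.74) apart from the other 3 libraries. NFKBIA reads per RELA read ran from 0.285 (0.271 to 0.299) in gRNA2 to 0.319 (0.302 to 0.338) in CTL+dox. TNFAIP3 reads per RELA read ran from 0.529 (0.507 to 0.552) in gRNA2+dox to 0.594 (0.568 to 0.621) in CTL+dox. For both pairs the intervals of the lowest and the highest library do not overlap. NFKB2 reads per NFKB1 read ran from 2.72 in CTL to 3.08 in gRNA2+dox, with overlapping intervals. These ratios compare reads of genes of unequal length and are read only across libraries.

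Around the members, 88 further genes of the pathway were listed by role, and 79 of them had enough reads. Past 1.5-fold in gRNA2+dox against gRNA2, 5 of the 79 (6.33%) were higher and 0 lower, beside 1.7% and 2.39% of all genes. Against CTL+dox they were again 5 and 0, beside 2.59% and 4.18%, and in CTL+dox against CTL and in gRNA2 against CTL 0 and 0. The lists were drawn up with earlier results of these libraries known, so the counts are a description. None of 7 ligands and none of 10 kinases passed in any of the 4 comparisons. Of 22 receptors and adaptors 1 passed, TLR2, a receptor for bacterial lipoproteins, with 37, 43, 36 and 60 reads. Its log2 fold change against gRNA2 was 0.98 (0.37 to 1.63), and against CTL+dox 0.52 (-0.06 to 1.13).

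Of 26 other target genes 4 passed against gRNA2, all higher (15.4%, beside 1.7% of all genes higher). The same 4 passed against CTL+dox, again higher, beside 2.59% of all genes. CCL2, a chemokine that attracts monocytes, had 66, 76, 85 and 195 reads, with log2 fold changes of 1.45 (1.08 to 1.84) against gRNA2 and 1.40 against CTL+dox. SOD2, the mitochondrial superoxide dismutase, had 3896, 4808, 5236 and 8285 reads and log2 fold changes of 0.92 and 0.83. CXCL2, a neutrophil chemokine, had 92, 74, 127 and 177 reads and log2 fold changes of 0.73 and 1.30. IRF1, a transcription factor that interferon also induces, had 1026, 1030, 1597 and 2059 reads and log2 fold changes of 0.62 and 1.04. Without doxycycline, gRNA2 against CTL gave 0.01 for CCL2, 0.08 for SOD2, 0.11 for CXCL2 and 0.29 for IRF1. There the intervals of SOD2 (0.02 to 0.14) and IRF1 (0.17 to 0.40) lay above 0. These 4 are named because they passed. Of the 26 other targets, 16 lay above 0 and 10 below it against gRNA2, beside 45.8% and 54.2% of all genes. By the interval alone 9 were higher and 5 lower, beside 13.6% and 17.3% of all genes. The members ran both ways too, with 3 of 10 higher and 4 lower by the interval alone.

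Of 14 other inhibitors and brakes 0 passed against gRNA2 and 1 against CTL+dox, NFKBID, a nuclear IκB protein. It is named after its values were seen, and had 37, 24, 49 and 50 reads and a log2 fold change of 1.09 (0.37 to 1.87). The median log2 fold change in gRNA2+dox against gRNA2 was -0.20 over ligands, 0.06 over receptors and adaptors, 0.02 over kinases, 0.09 over brakes and 0.13 over other targets. Against CTL+dox these medians were 0.04, 0.08, 0.14, 0.20 and 0.11.

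**Figure D5:**
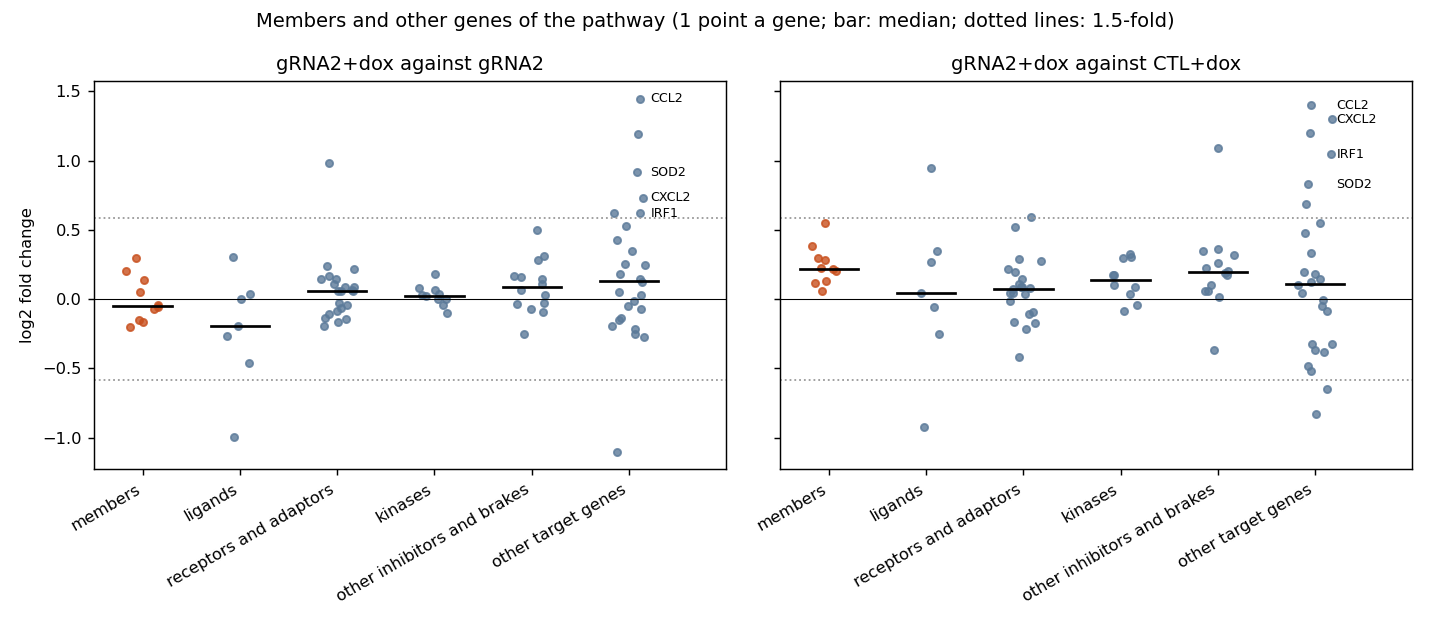
Log2 fold change of the members and of the listed pathway genes by role in gRNA2+dox against gRNA2 and against CTL+dox, one point a gene, with the median of each list as a bar. CCL2, SOD2, CXCL2 and IRF1 lie past 1.5-fold (dotted lines) in both panels, whereas all members lie inside it. Unlabelled points past a line are TLR2 (left), NFKBID (right) and genes whose counting interval covers 0.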

How the data were processed

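Total RNA of MDA-MB-468 mammospheres was sequenced in 4 libraries, 1 per condition. By the study's methods, the authors trimmed reads with fastp, aligned them with STAR and deposited the raw counts on each gene. The build is hg38 by the submitters' processing notes, and the STAR version and annotation are not given in the sources used here. STAR sets aside reads on overlapping genes, 2.09% to 2.17% here, and reads that map to several places. The unstranded column was used, since the first strand held 49.0% to 49.1% of stranded reads. The rows that name no gene, 19.0% to 20.3% of reads, were left out of library sizes.

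Library sizes were normalized by TMM in edgeR 4.0.16 (R 4.3.3), with factors of 1.02, 1.00, 0.990 and 0.985 for CTL, CTL+dox, gRNA2 and gRNA2+dox. A prior count of 0.5 entered each log2 fold change. A minimum of 10 counts in any library left 15204 of 26475 genes. The study's GFOLD was not run. Its bound was replaced by the outer quantile nearer to 0 (1% or 99%) of the log2 ratio under Poisson error. Intervals are 95% and were computed with scipy 1.17.1, and that of a difference of ratios is a normal approximation with counting error. The rules were tested on simulated data. These data held counting error alone and no spread between cultures. A level of 3 counts corresponds to 0.115 to 0.147 CPM.

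Named genes are the members, TCOF1 and, per list, at most 4 genes past 1.5-fold in gRNA2+dox against gRNA2 with at least 30 reads. The members and lists were chosen with earlier results of these data known. Transcript lengths and overlaps come from GENCODE 44 lifted to GRCh37, matched by symbol for 13810 of 15204 genes (90.8%), and positions from RefSeq GRCh38.p14. Protein sequences were not used here. Alternatives tried were size factors of DESeq2 1.42.0, total counts, no filter or a minimum of 50 counts, a prior count of 5, libraries thinned to the smallest total, other bounds, the fold or the interval alone, and an added coefficient of variation of 0.1.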

Additional observations from a re-analysis of the deposited data

Results flagged for a closer look

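In 3 members the level moved one way with doxycycline in the arm of the TCOF1 guide and the other way in the control arm, 30% of the members beside 43.9% of all genes and 38.5% of those with a mean of at least 500 reads. RELB had a log2 ratio of 0.30 with the TCOF1 guide and -0.20 with the control guide. ICAM1 had 0.21 and -0.056. NFKBIA had 0.051 and -0.030, and the counting interval of each covered 0. Each ratio rests on 1 library per condition, so the difference between the arms was not tested across cultures.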

How the results depend on the processing

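No paired analysis was possible because a condition is a single library, so none could be left out either. The count of members past 1.5-fold was 0 in each comparison under the other scalings, filters, depth and prior count. By the interval alone, which sets no fold, the members called numbered 7 in gRNA2+dox against gRNA2 and 7 in CTL+dox against CTL. They numbered 8 in gRNA2+dox against CTL+dox and 8 in gRNA2 against CTL. With a coefficient of variation of 0.1, chosen after seeing the data for these counts, members with an interval clear of 0 numbered 0, 0, 1 and 0 in that order in place of 7, 7, 8 and 8, the 1 being ICAM1. Differences of the doxycycline ratios clear of 0 numbered 0 in place of 2. These losses follow from the wider intervals. Of 240 values of single members' fold changes under alternatives, 239 lay within the counting interval. The exception was ICAM1 in gRNA2 against CTL, 0.24 with total counts only in place of 0.29. Values under the other filters equal the main ones by construction, since every member passed each filter, and could not leave the interval. The prior count of 5 barely moved them either. Every member had at least 639 reads in each library, and spread between cultures was not measured.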
